A study of Homo sapiens with 6 samples.

Results

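The genes described here are 10 components of the Notch pathway, namely the receptors NOTCH1, NOTCH2 and NOTCH3, the ligands JAG1, JAG2 and DLL1, and the transcriptional targets HES1, HEY1, HEY2 and HEYL. They were chosen by name, with earlier results of these data known, out of the 58051 genes counted in each library. Of these 10 genes, 8 had enough counts to be tested, among 20536 genes tested in all, and HEY2 and HEYL did not. The cells were A172, an established human glioblastoma line, made into stable lines by lentivirus produced in HEK293T cells. The control lines carried pLX317-GFP and the compared lines carried pLX317-RBFOX1, with 3 biological replicates of each, as the methods call them. Both groups had therefore been exposed to virus of the same vector, made with the same packaging plasmids. Whether a line was 1 clone or a pool, and whether the replicates were separate transductions, is not stated in the sources used here. RNA was depleted of ribosomal RNA and sequenced as stranded pairs of reads. The comparison addressed how the transcriptome of glioblastoma cells changes when RBFOX1, an RNA-binding protein of neurons and muscle that binds TGCATG (in DNA letters), is overexpressed.

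Notch receptors are single-pass membrane proteins that are activated by ligands on the surface of neighbouring cells. Binding exposes the receptor to cleavage first by ADAM metalloproteases and then by gamma-secretase, which frees the intracellular domain to enter the nucleus. There it joins RBPJ, a DNA-binding protein that recognises TGGGAA, and Mastermind-like coactivators, and turns on repressors of the HES and HEY families. In the brain the pathway is best known for keeping neural stem and progenitor cells from differentiating, and it has been studied in glioblastoma stem-like cells for that reason.

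Libraries held between 7433414 and 23249221 counts on genes, RBFOX1 replicate 1 being the shallowest. RBFOX1 itself had 4, 0 and 1 counts in the GFP libraries and 10276, 16467 and 21451 counts in the RBFOX1 libraries, although gene-level counts do not separate the construct from the cells' own gene. Levels below are normalized counts, that is, counts scaled by the TMM method to the mean library size, on which 3 counts were worth 1.73 to 5.16, and values after ± are SDs over the 3 libraries of a group unless marked SE. GFP replicate 1, the deepest library, stood apart from the other GFP libraries. Divided by its degrees of freedom, the chi-square of its counts was 8.08 and 8.23 against them, a measure that grows with depth. It was 1.6 between the other GFP libraries and 1.88 to 2.8 between RBFOX1 libraries. Results on the Notch genes are therefore also given without it. The defining astroglial markers S100B, AQP4 and SLC1A3 had at most 3 counts in every library and GFAP at most 4, so these defining markers were next to absent from both groups. The summed normalized count of 8 astroglial markers ranged from 857 to 1336 in GFP cells and from 622 to 683 in RBFOX1 cells. Of these markers 2 were higher and 1 lower, and the sum was mostly SOX9, which fell from 1140 to 512 on average. SOX2 rose from 22.2 to 125. For 8 glioma progenitor and mesenchymal markers, the sum ranged from 73611 to 75089 in GFP and from 49520 to 50256 in RBFOX1 cells. Here 2 were higher and 4 lower, and the sum was mostly VIM (mean 56520 against 35953) and CD44 (13057 against 6986). Going up were NES, from 3302 to 5001, and CHI3L1, from 6.58 to 700. Other sums were small apart from the mural one, where 6 markers summed to 4229 to 4532 against 4816 to 5289, with 4 higher and 2 lower. The 6 endothelial markers summed to 107 to 144 against 391 to 434, with 4 higher. The 6 neuronal markers summed to 173 to 179 against 416 to 549, with 3 higher. These were MAP2 (mean 104 against 293), STMN2 (1.65 against 69.5) and SYP (11.0 against 32.1), while TUBB3 did not pass the test. RBFOX3 and DCX had 3 counts or fewer in every library. The 6 immune markers summed to 82.0 to 99.6 against 113 to 127, with 2 higher and 1 lower and AIF1 at 0, and the 4 epithelial ones to 8.99 to 13.3 against 49.9 to 65.8, with 2 higher. The part of these marker differences in the results on the Notch genes was not tested. In bulk RNA, fewer cells of a type and less RNA per cell cannot be told apart.

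The sequence shown first, for its matches to the RBPJ core, is the promoter of HES1, the 250 bases before its annotated start at chr3:194135898-194136147 on the plus strand of GRCh38.p14, as RefSeq gives them. Capitals mark the TGGGAA matches.
HES1 promoter: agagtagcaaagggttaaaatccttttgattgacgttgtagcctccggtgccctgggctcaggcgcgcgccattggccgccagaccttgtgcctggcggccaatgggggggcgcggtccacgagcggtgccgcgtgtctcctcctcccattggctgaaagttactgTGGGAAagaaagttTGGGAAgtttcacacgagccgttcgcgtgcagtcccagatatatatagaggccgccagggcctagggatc
The pair of TGGGAA matches begins 84 and 70 bases before the start, both on the plus strand and 14 bases apart. Of 35116 promoters of this length, 20.8% held at least 1 TGGGAA on either strand and 2.90% held 2 or more. No promoter sequence was matched for HEY1 and DLL1. Among the 8 other Notch genes, HES1 and HEYL held 2 and HEY2 held 1, and the receptors and Jagged ligands held none. Of these targets, HEY2 and HEYL had at most 1 count in any library here. HES2, a relative of HES1 that was also searched, held 0. The HES1 promoter also held 3 matches to CACNAG, a sequence bound by HES proteins, none of which overlapped a TGGGAA. Of all promoters, 32.0% held at least 1 CACNAG and 6.32% held 2 or more. Among the other Notch genes with a promoter sequence, only NOTCH3 had a match, with 1. No CACGTG, the E-box bound by HEY proteins among others, was found in any of the 8 promoters, against 6.34% of all promoters. A match to these letters is a description and does not show binding.

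The other sequences shown are the RBFOX motifs of the receptors, since RBFOX1 is the protein that was added. Each of the 3 receptors held 1 TGCATG in its annotated 3' UTR (GENCODE 44, GRCh38), read here on the transcript strand with 12 bases on either side and the motif in capitals.
NOTCH1, chr9:136495227-136495256, minus strand: atgtaggcatcaTGCATGtcaaacatgaga
NOTCH2, chr1:119913074-119913103, minus strand: ggagaacctatcTGCATGgacctctgtgga
NOTCH3, chr19:15159107-15159136, minus strand: tgatcatggttcTGCATGaatttcactttt
The NOTCH1 motif began at base 827 after the stop codon, the whole 3' UTR being 1638 bases long. In NOTCH2 it began at base 2215 of 3753, and in NOTCH3 at base 1538 of 1624, close to the end. Of the tested protein-coding genes, 36.5% held the motif in their 3' UTR, and among those with a 3' UTR of similar length (0.8 to 1.25 times as long) the share was 37.7% for NOTCH1, 67.2% for NOTCH2 and 37.5% for NOTCH3.

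The receptors did not move together. NOTCH1 and NOTCH2 rose in RBFOX1 cells, by 1.42-fold and 1.17-fold, and NOTCH3 fell by a small amount that did not hold under every alternative. NOTCH1 (ENSG00000148400), on chromosome 9 from 136494433 to 136546048, is the receptor best known from T-cell leukaemia and from neural development. Its normalized count was 575, 618 and 768 in GFP replicates 1, 2 and 3 and 907, 908 and 944 in RBFOX1 replicates 1, 2 and 3. All 3 RBFOX1 libraries lay above every GFP library, and they were closer to each other than the GFP libraries were. The mean rose from 654 ± 102 to 919 ± 21.3 (SD, n = 3 each), for a log2 fold change of 0.50 ± 0.0824 (standard error, edgeR's quasi-likelihood test, adjusted p = 3.70e-05).

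NOTCH2 (ENSG00000134250), on chromosome 1 from 119911553 to 120100779, is a widely expressed receptor with a prominent role in radial glia. It had 4041, 4212 and 4014 normalized counts in the GFP libraries and 4874, 4847 and 4615 in the RBFOX1 libraries. The groups did not overlap, and the gap between them was wider than the range of either group. The log2 fold change was 0.22 (standard error 0.0470, adjusted p = 0.000506, edgeR), from 4089 ± 108 to 4779 ± 142 (SD, n = 3 each). NOTCH2 has near-identical copies of its first exons, of which NOTCH2NLA was counted, and reads shared with such copies are uncertain. NOTCH2NLA itself had 17 to 19 counts in the GFP libraries and 12 to 22 in the RBFOX1 libraries, far fewer than NOTCH2, and did not pass the test (log2 fold change 0.34, 95% interval -0.30 to 0.98, adjusted p = 0.394, edgeR).

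NOTCH3 (ENSG00000074181), on chromosome 19 from 15159038 to 15200995, is the receptor typical of vascular smooth muscle and pericytes. The GFP libraries gave 389, 404 and 498 normalized counts and the RBFOX1 libraries 382, 305 and 367. The groups were separated only by the narrow gap between RBFOX1 replicate 1 and GFP replicate 1. The mean went from 430 ± 58.9 to 352 ± 40.6 (SD, n = 3 each), for a log2 fold change of -0.29 ± 0.0984 (SE, edgeR, adjusted p = 0.0198). The call was lost in DESeq2 (adjusted p = 0.0514), when libraries were scaled by their total count alone (adjusted p = 0.06), and in edgeR without GFP replicate 3 (log2 fold change -0.18, adjusted p = 0.154) or without RBFOX1 replicate 2 (-0.19, adjusted p = 0.164). Over all alternatives its adjusted p ranged from 0.00192 to 0.164.

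Among the ligands, JAG1 and DLL1 moved further than any of the 3 receptors, and in opposite directions. JAG1 fell to 30.1% of its level in GFP cells, while DLL1 rose 2.68-fold and JAG2 rose by less. JAG1 (ENSG00000101384), on chromosome 20 from 10637684 to 10673999, encodes Jagged 1, a membrane ligand of all the Notch receptors and the gene of Alagille syndrome. Its normalized count was 905, 846 and 855 in the GFP libraries against 327, 235 and 244 in the RBFOX1 libraries. Every RBFOX1 library lay far under every GFP library, with the shallowest library, RBFOX1 replicate 1, the highest of its group. The fall from 869 ± 31.4 to 269 ± 50.6 (SD, n = 3 each) was 3.32-fold, for a log2 fold change of -1.73 ± 0.0896 (SE, edgeR, adjusted p = 2.89e-12).

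DLL1 (ENSG00000198719), on chromosome 6 from 170282206 to 170306565, encodes Delta-like 1, a ligand carried by differentiating neuronal precursors. The GFP libraries had 75.4, 59.8 and 59.0 normalized counts and the RBFOX1 libraries 139, 185 and 197. The lowest RBFOX1 library still stood well above the highest GFP library. From 64.7 ± 9.27 to 174 ± 30.7 (SD, n = 3 each), its log2 fold change was 1.42 (standard error 0.141, adjusted p = 5.06e-08, edgeR). FAM120B overlaps DLL1 on the opposite strand, and the deposited counts are marked as made in HTSeq-count's reverse-strand mode.

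JAG2 (ENSG00000184916), on chromosome 14 from 105140982 to 105168824, encodes the second Jagged ligand. Its normalized count was 53.0, 42.1 and 58.0 in GFP cells and 53.3, 93.7 and 71.9 in RBFOX1 cells. This was the single tested Notch gene of the 8 whose groups overlapped, since RBFOX1 replicate 1 lay inside the GFP range. The mean went from 51.0 ± 8.11 to 73.0 ± 20.2 (SD, n = 3 each), for a log2 fold change of 0.54 ± 0.182 (SE, edgeR, adjusted p = 0.0186). It was no longer called in DESeq2 (adjusted p = 0.0959) or in edgeR without GFP replicate 2 (0.44, adjusted p = 0.0666) or RBFOX1 replicate 2 (0.34, adjusted p = 0.19), and over all alternatives the adjusted p ranged from 0.00504 to 0.19.

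**Figure D1:**
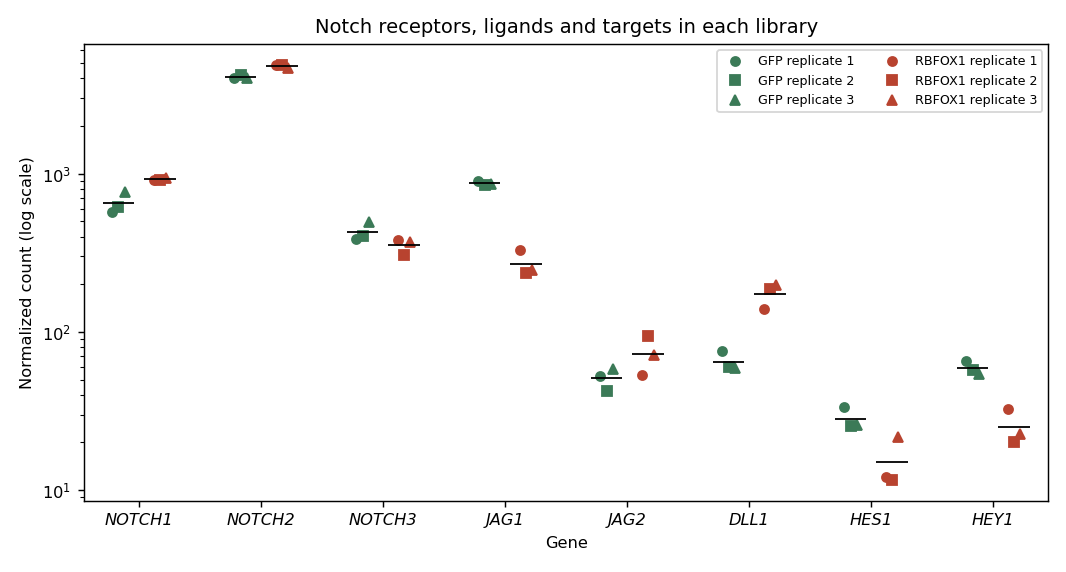
Normalized counts on a log axis of the 8 tested Notch genes, with 1 point per library (3 GFP and 3 RBFOX1 libraries, the marker giving the replicate) and a line at each group's mean. JAG1 at 235 to 327 in RBFOX1 cells sits under 846 to 905 in GFP cells, DLL1 moves the other way, and JAG2 alone shows overlapping groups.

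Of the targets chosen, the measurable ones, HEY1 and HES1, were both lower in RBFOX1 cells. Other targets, listed further below, did not all share this direction. HEY1 fell 2.49-fold, and HES1 was lower by an amount that rested on few counts. HEY1 (ENSG00000164683) encodes a basic helix-loop-helix repressor induced by Notch. Its normalized count was 65.6, 57.6 and 54.0 in the GFP libraries and 32.7, 20.01 and 22.5 in the RBFOX1 libraries. No RBFOX1 library reached the lowest GFP library, and RBFOX1 replicate 1 was again the highest of its group. From 59.1 ± 5.98 to 25.1 ± 6.71 (SD, n = 3 each), its log2 fold change was -1.32 (standard error 0.201, adjusted p = 1.57e-05, edgeR).

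HES1 (ENSG00000114315), on chromosome 3 from 194136148 to 194138732, encodes the repressor that holds back neuronal differentiation, and its promoter is the one printed above. It had 58, 23 and 26 raw counts in the GFP libraries and 7, 11 and 25 in the RBFOX1 libraries. On the normalized scale these were 33.4, 25.5 and 26.0 against 12.04, 11.6 and 21.7. The groups did not overlap, but RBFOX1 replicate 3 stood nearer to the GFP libraries than to the other two RBFOX1 libraries. The mean went from 28.3 ± 4.43 to 15.1 ± 5.69 (SD, n = 3 each), for a log2 fold change of -0.87 ± 0.274 (SE, edgeR, adjusted p = 0.0127).

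The HES1 call did not hold in DESeq2 (log2 fold change -0.87, adjusted p = 0.101), nor in edgeR without GFP replicate 1 (-0.68, adjusted p = 0.08), RBFOX1 replicate 1 (-0.76, adjusted p = 0.0504) or RBFOX1 replicate 2 (-0.66, adjusted p = 0.0869). Over all alternatives its adjusted p ranged from 0.00369 to 0.101. HEY2 (ENSG00000135547) had 1 count in GFP replicate 3, 1 in RBFOX1 replicate 3 and 0 in the other libraries. HEYL (ENSG00000163909) had 0 counts in all 6 libraries, where a count of 0 allows up to 3 counts. Neither of these HEY genes was detectable above that limit in A172 cells under either condition, so no fold is given.

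**Figure D2:**
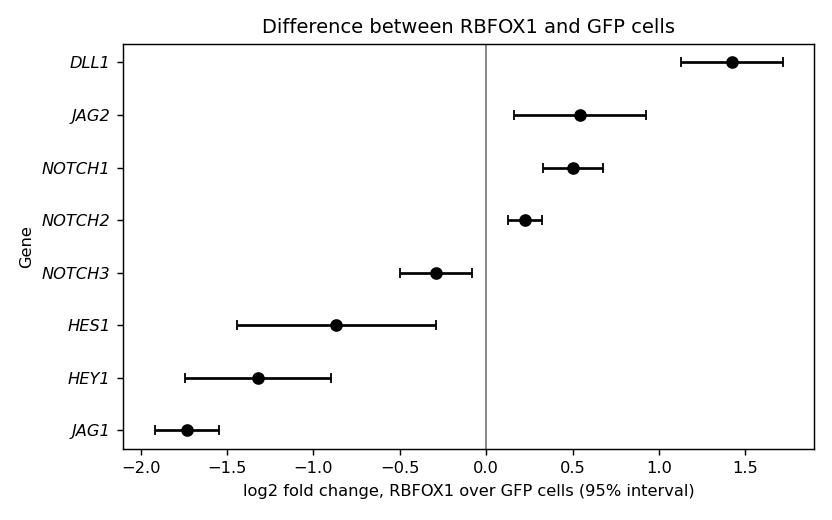
Log2 fold change of RBFOX1 over GFP cells for the 8 tested Notch genes (points, edgeR fit) with 95% intervals (bars), ordered by value, with a line at 0. JAG1 at -1.73 and DLL1 at 1.42 are the ends of the range, and the interval of HES1 is the widest.

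Counted over the 8 tested genes, 4 were higher (NOTCH1, NOTCH2, JAG2 and DLL1) and 4 lower (NOTCH3, JAG1, HES1 and HEY1) in RBFOX1 cells. Of all genes tested, 46.6% were called, 23.7% higher and 22.9% lower, so calls are common in this comparison and the count alone says little. JAG1, DLL1 and HEY1 were also past an absolute log2 fold change of 1, as were 12.7% of all genes tested. The groups did not overlap for 7 of the 8, which compares with 53.4% of all genes tested. Since the genes were chosen with earlier results of these data known, these counts beside the shares are a description only. The median log2 fold change of the 8 was -0.03 against 0.01 over all genes tested. The count of lower genes was 2 in DESeq2 and 2 in edgeR without RBFOX1 replicate 2, with NOTCH3 and HES1 lost in both cases. The higher call of JAG2 was lost in both as well. Without GFP replicate 1, 4 were higher and 3 lower, HES1 being the call lost. In that fit the log2 fold change was 0.41 for NOTCH1, 0.22 for NOTCH2, -0.37 for NOTCH3, -1.70 for JAG1, 0.58 for JAG2, 1.59 for DLL1 and -1.21 for HEY1, each with the direction it had with all 6 libraries.

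Set against each other within a library, the ligand transcripts changed their proportions. These shares and ratios were chosen after the values were seen, and they are of counts, not per length, so they compare libraries and not genes. JAG1 made up 87.6% of the counts of the 3 ligands in GFP replicate 1, 89.3% in replicate 2 and 88.0% in replicate 3, with 95% Wilson intervals that reached at their widest from 85.8 to 91.2%. In RBFOX1 cells it made up 62.9% (57.3 to 68.2), 45.7% (41.3 to 50.1) and 47.6% (43.6 to 51.6). Thus the Jagged 1 transcript went from the bulk of the ligand counts to between 45.7 and 62.9% of them, with RBFOX1 replicate 1 closest to the controls. These intervals cover counting error only.

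The share of DLL1 was 7.30, 6.31 and 6.06% in the GFP libraries and 26.8, 36.1 and 38.4% in the RBFOX1 libraries. JAG2 took 5.13, 4.44 and 5.96% against 10.3, 18.2 and 14.0%. Both gained share in every RBFOX1 library. There were 11.99, 14.1 and 14.5 JAG1 counts per DLL1 count in GFP cells and 2.35, 1.27 and 1.24 in RBFOX1 cells. The groups did not overlap in any of these 4 measures. An exact permutation test of 3 against 3 libraries cannot go below p = 0.1, so the 8 shares and ratios computed are given as a description, with no test.

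The receptor counts were mostly of NOTCH2 in every library. NOTCH2 made up 80.8, 80.5 and 76.0% of the counts of the 3 receptors in GFP cells and 79.1, 80.0 and 77.9% in RBFOX1 cells, and the groups overlapped. NOTCH1 took 11.5, 11.8 and 14.6% against 14.7, 15.0 and 15.9%. NOTCH3 took 7.77, 7.72 and 9.42% against 6.20, 5.04 and 6.20%. The shift lay between the pair of less counted receptors, with 1.48, 1.53 and 1.54 NOTCH1 counts per NOTCH3 count in GFP libraries and 2.37, 2.97 and 2.57 in RBFOX1 libraries. For NOTCH1, NOTCH3 and their ratio the groups did not overlap.

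**Figure D3:**
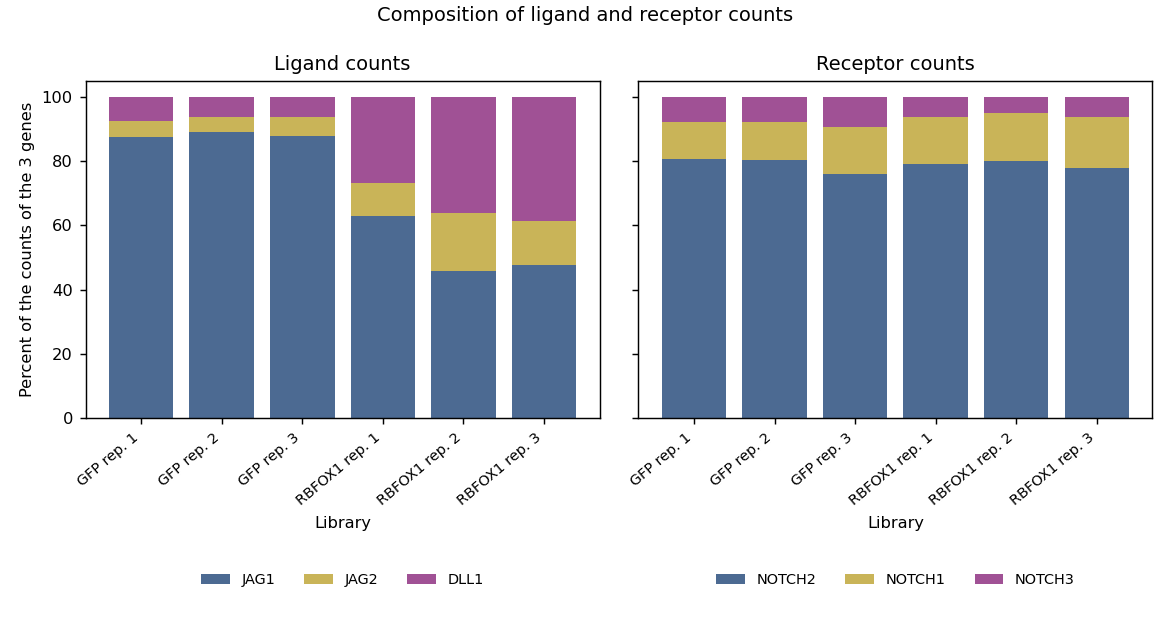
Stacked bars of the percent of counts taken by each ligand (left) and each receptor (right) in each library, 100% being the counts of the 3 genes. JAG1 takes 87.6 to 89.3% of ligand counts in GFP libraries and 45.7 to 62.9% in RBFOX1 libraries, while NOTCH2 takes 76.0 to 80.8% of receptor counts throughout.

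Levels of different genes were compared only per length, as TMM-scaled CPM divided by the kilobases of annotated exon. NOTCH2 was the highest of the 10 in both conditions, at 18.5 ± 0.488 in the GFP libraries and 21.7 ± 0.645 in the RBFOX1 libraries. In GFP cells JAG1 followed at 7.10 ± 0.256, then NOTCH1 at 3.96 ± 0.616 and NOTCH3 at 3.47 ± 0.476, and the ranges of the last pair overlapped. Below them came DLL1 at 1.29 ± 0.184, HES1 at 1.04 ± 0.164, HEY1 at 0.817 ± 0.0827 and JAG2 at 0.606 ± 0.0963, of which DLL1 and HES1 overlapped. Of the 3 ligands, Jagged 1 was thus the highest per length in control cells, with no overlap with DLL1 or JAG2, and other ligand genes were not ranked. Some overlaps depend on the length used. Per length of the longest transcript, NOTCH1 (4.43 to 5.92) and NOTCH3 (3.40 to 4.35) did not overlap in GFP cells. There HEY1 (1.06 to 1.29) overlapped DLL1 (1.18 to 1.52) and HES1 (1.23 to 1.61).

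In RBFOX1 cells the order under NOTCH2 was NOTCH1 at 5.57 ± 0.129, DLL1 at 3.46 ± 0.610, NOTCH3 at 2.84 ± 0.328 and JAG1 at 2.19 ± 0.414 (SD, n = 3 each). DLL1 and NOTCH3 overlapped, and so did NOTCH3 and JAG1, whereas every DLL1 library (2.77 to 3.93) lay above every JAG1 library (1.92 to 2.67). JAG2 at 0.867 ± 0.240, HES1 at 0.557 ± 0.210 and HEY1 at 0.347 ± 0.0929 were the lowest of the 8 tested genes, HES1 overlapping both JAG2 and HEY1, and HEY2 and HEYL lay under them. The gap between DLL1 and JAG1 depends on the length used. With the longest transcript in place of the union of exons, DLL1 was at 3.50 ± 0.616 and JAG1 at 3.43 ± 0.648, and their ranges overlapped.

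The annotated 3' UTRs did not sort these genes by direction. Besides the 3 receptors, HEY1 held 1 TGCATG and HEYL held 2, while JAG1, JAG2, DLL1, HES1 and HEY2 held none. Of the 4 tested genes with a motif, NOTCH1 and NOTCH2 were higher and NOTCH3 and HEY1 lower in RBFOX1 cells. Of the 4 without, JAG2 and DLL1 were higher and JAG1 and HES1 lower. The genes with the largest rise and the largest fall, DLL1 and JAG1, thus both lacked the motif in the 3' UTR examined. Other RBFOX motifs, other regions and other transcripts of these genes were not searched, and whether RBFOX1 acts on them was not tested.

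Around the 10 genes, 64 further genes of the pathway were listed in 5 groups by role, of which 59 were tested. Of these, 18 were higher, 23 lower and 18 not past the threshold, with a median log2 fold change of -0.02. Over all genes tested, 46.6% were called, 23.7% higher and 22.9% lower, and the counts of each list below stand beside these shares. The GFP and RBFOX1 libraries did not overlap for 42 of the 59, where 53.4% of all genes tested did not overlap. These lists too were chosen with earlier results of these data known, so their counts are a description only.

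For receptor processing and glycosylation, 2 of 14 genes were higher, 10 were lower and 2 did not pass, with a median log2 fold change of -0.39 against 0.01 over all genes tested. The lower ones were all changes of less than 1 on the log2 scale, and with that minimum the list held 1 higher and 0 lower genes. ADAM17, a metalloprotease that can shed Notch and many other membrane proteins, went down to 1880 ± 67.0 from 3579 ± 31.1 normalized counts (SD, n = 3 each), for a log2 fold change of -0.93 ± 0.0482 (SE, edgeR, adjusted p = 3.16e-12). ADAM10, the protease that makes the ligand-dependent cut and a gene named here after its values were seen, fell from 3421 ± 225 to 2141 ± 110, for a log2 fold change of -0.67 ± 0.0563 (SE). NCSTN, the gamma-secretase subunit nicastrin, fell by 0.70 on the log2 scale (standard error 0.0541) from 2387 ± 115 normalized counts. FURIN, which cuts the receptor in the Golgi, fell by 0.69 (standard error 0.0528) from 1809 ± 63.2. Among the fringe glycosyltransferases, which set the preference of receptors for Delta or Jagged ligands, LFNG rose from 454 ± 9.86 to 633 ± 12.1 (log2 fold change 0.48, standard error 0.0643).

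MFNG, at a much lower count, also rose, from 9.26 ± 3.86 to 24.8 ± 5.35 (log2 fold change 1.28, standard error 0.317, adjusted p = 0.00207, edgeR). RFNG, named after its values were seen, fell by 0.53 on the log2 scale (standard error 0.0655, adjusted p = 1.10e-06, edgeR), so the 3 fringe genes did not share a direction. POFUT1, which adds O-fucose to the receptor, did not pass the test, with a 95% interval of -0.20 to 0.0020 on the log2 scale.

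Among other receptors and ligands, 4 of 6 genes were tested. DNER, a neuronal membrane protein described as a non-canonical Notch ligand, went down to 718 ± 21.9 from 2549 ± 78.4 normalized counts (SD, n = 3 each), for a log2 fold change of -1.82 ± 0.0539 (SE, edgeR, adjusted p = 5.96e-16). It was thus, after JAG1, another ligand gene with a fall of more than 3-fold. DLK2, a Delta-like homologue, went from 8.39 ± 2.11 to 18.1 ± 4.05 (log2 fold change 1.09, adjusted p = 0.00972, edgeR), a call that was lost in DESeq2 and without RBFOX1 replicate 3. NOTCH4, the endothelial receptor, was at 11.0 ± 4.39 and 13.9 ± 1.84 and did not pass (95% interval of the log2 fold change -0.37 to 1.08). DLL4, the ligand of tip cells in vessels, was at the detection limit with 3.38 ± 2.02 and 2.85 ± 2.47, and DLL3 and DLK1 were not tested for want of counts.

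For the endocytosis and turnover of ligands and receptors, 2 of 13 genes were higher, 2 lower and 9 not past the threshold. NEURL1B, a ubiquitin ligase of the Neuralized type that acts on ligands, rose from 146 ± 4.10 to 371 ± 27.7 (log2 fold change 1.34, standard error 0.0883). DTX2, a Deltex ubiquitin ligase, rose by a log2 fold change of 0.75 (standard error 0.0917) from 255 ± 31.5. NUMB, an endocytic inhibitor of Notch, fell by 0.55 on the log2 scale (standard error 0.0697) from 1291 ± 124, and MIB2, a Mind bomb ligase, fell by 0.44 (standard error 0.106) from 273 ± 40.4. Without GFP replicate 1 the fall of MIB2 was smaller, with a log2 fold change of -0.29 (edgeR, adjusted p = 0.0184). MIB1, the main ligase for ligand uptake and named after its values were seen, was at 2857 ± 50.3 and 2864 ± 102, with a 95% interval of the log2 fold change of -0.10 to 0.10.

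Of the 21 genes of the nuclear complex and its corepressors, 10 were higher, 9 lower and 2 not past the threshold, with a median log2 fold change of 0.14. Without RBFOX1 replicate 3 the lower ones numbered 5. RBPJ, the DNA-binding partner of the receptor and named after its values were seen, fell by 0.16 on the log2 scale (standard error 0.0577, adjusted p = 0.0243, edgeR) from 1362 ± 11.9. The RBPJ call was lost in 5 alternatives, with adjusted p from 0.0602 in DESeq2 to 0.203 in edgeR without RBFOX1 replicate 3, where the log2 fold change was -0.11, and over all alternatives the adjusted p ranged from 0.00792 to 0.203. The Mastermind-like coactivators split, as MAML2 rose from 104 ± 15.7 to 201 ± 21.9 (log2 fold change 0.94, standard error 0.120) and MAML3 fell from 118 ± 8.37 to 42.6 ± 0.882 (-1.45, standard error 0.141). MAML1 did not pass, with a 95% interval of -0.0030 to 0.28 on the log2 scale, and neither did SPEN, a corepressor that binds RBPJ, with one of -0.05 to 0.35.

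The Groucho-type corepressors of the TLE family, which HES proteins recruit, split in the same way. TLE2 rose from 53.3 ± 4.74 to 175 ± 25.6 (log2 fold change 1.71, standard error 0.136, adjusted p = 2.04e-09, edgeR). TLE4 rose from 1457 ± 16.8 to 3424 ± 234 (log2 fold change 1.23, standard error 0.0546). TLE1 fell from 379 ± 29.0 to 114 ± 18.6 (log2 fold change -1.73, standard error 0.107). TLE3, named after its values were seen, fell from 50.7 ± 10.0 to 8.98 ± 3.33 (log2 fold change -2.36, standard error 0.270, adjusted p = 3.48e-07, edgeR).

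Among 10 other HES genes and targets, 7 were tested, of which 3 were higher, 1 was lower and 3 did not pass. HES2, a relative of HES1, rose 5.91-fold to 708 ± 67.8 from 120 ± 7.67 normalized counts (SD, n = 3 each), for a log2 fold change of 2.56 ± 0.0893 (SE, edgeR, adjusted p = 7.85e-15). MYC, a growth regulator that Notch can induce, rose from 503 ± 24.9 to 1013 ± 116 (log2 fold change 1.01, standard error 0.0765), and HES4 rose from 21.9 ± 6.45 to 42.0 ± 3.73 (0.88, standard error 0.223, adjusted p = 0.00259, edgeR). CCND1, which encodes cyclin D1, fell by 0.30 on the log2 scale (standard error 0.0494) from 16178 ± 872. HES and HEY genes thus did not share a direction, with HES2 and HES4 higher and HEY1, and HES1 in the edgeR fit, lower. HES6, HES7 and NRARP, the last a feedback inhibitor of the pathway, did not pass, with 95% intervals of the log2 fold change of -0.01 to 0.41, -2.23 to 0.34 and -0.74 to 1.04. HES3, HES5 and HELT had 0 counts in every library.

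**Figure D4:**
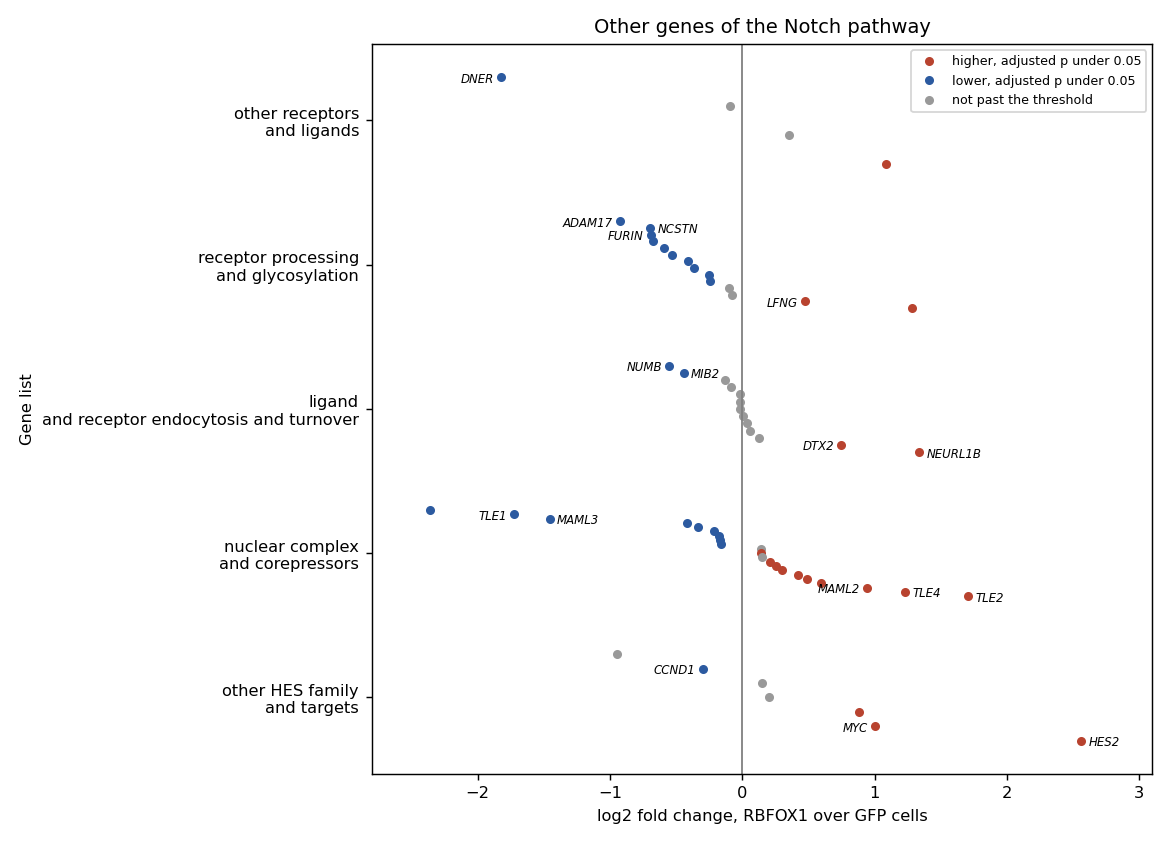
Log2 fold change of RBFOX1 over GFP cells (x axis) of the 59 tested genes in 5 lists of other Notch pathway genes, 1 point per gene, coloured by the call at an adjusted p under 0.05, with labels for called genes named in the text that average 50 or more normalized counts and were picked by size of change. In receptor processing and glycosylation 10 of 14 genes are called lower and 2 higher, and the other lists also hold calls on both sides of 0.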

How the data were processed

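RNA from 3 GFP and 3 RBFOX1 replicates of A172 cells was sequenced as ribosomal RNA-depleted, stranded, paired-end libraries. The authors aligned reads to GRCh38 with HISAT2, and HTSeq-count (intersection-strict) gave the counts per gene of Ensembl 87, which the authors deposited without normalization. Their table of DESeq2 results, which holds the mean signal, fold changes on the log2 scale, a test score and p-values of their own comparison, was not used. Pairs assigned to a gene were 52 to 61.85% of all, and pairs of low mapping quality, which the counting dropped, 16.83 to 27.04%. Such classes stayed out of library sizes.

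Counts were scaled by TMM and tested with edgeR 4.0.16 (R 4.3.3), using the two-sided quasi-likelihood test with condition as the only term, over genes whose counts summed to 10 or more, with Benjamini-Hochberg adjustment and a threshold of 0.05. Unless said otherwise, adjusted p-values are from this fit. DESeq2 1.42.0, limma-voom (limma 3.58.1), 2 other scalings, 2 other filters, a replicate block, a minimum log2 fold change of 1, each library left out in turn and another gene length were alternatives, and scaling by the total count alone was added after seeing the data. Shares and ratios of counts were not tested.

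Symbols, positions, lengths and 3' UTRs came from GENCODE 44 on GRCh38, a later annotation than that of the counts, and 98.1% of gene identifiers matched. Promoters came from RefSeq (GRCh38.p14), where 8 of the 10 genes matched. Motifs were searched in promoters on both strands and in 3' UTRs on the transcript strand. The members and lists were chosen with earlier results of these data known. Genes named by rule were RBFOX1, the 10 Notch genes, for each other list the 3 genes that rose most and the 3 that fell most among those called and averaging 50 or more normalized counts, and the genes of any count of 5 or fewer. Some genes that this rule picks are not reported here. No pair of replicates agreed within sampling noise (chi-square per degree of freedom 1.6 or more). P-values weigh the difference between the groups against the spread between these libraries. Whether that spread covers separately made lines is not known, since separate transductions are not stated. Notch protein and its cleavage were not measured.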

Additional observations from a re-analysis of the deposited data

How the results depend on the processing

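Of 112 refits of the 8 tested Notch genes (14 alternatives each), 101 kept direction and side of the threshold, 11 lost the call and 0 reversed. The lost calls were those of NOTCH3, JAG2 and HES1. JAG1, DLL1, HEY1, NOTCH1 and NOTCH2 kept theirs in all 14. The 18 other pathway genes named by size of change, averaging 50 or more counts, kept theirs in 252 of 252 refits. Of 98 refits of 7 other called genes that are named, 7 lost the call, 2 for DLK2 and 5 for RBPJ. Of 10 named genes not past the threshold, HES6 passed without GFP replicate 1, MAML1 without GFP replicate 3 and under scaling by the total count, and POFUT1 under upper quartile scaling. MIB1, DLL4 and NRARP changed sign without passing. MIB1 had a log2 fold change of -0.0037 with no filter and -0.0192 under upper quartile scaling, and with each library left out MIB1 ranged from -0.0208 to 0.03, DLL4 from -0.43 to 0.27 and NRARP from -0.16 to 0.49. DESeq2 left 2 lower Notch genes in place of 4 and lost the higher call of JAG2. With a minimum log2 fold change of 1 in either direction there were 1 higher and 2 lower Notch genes, and 7 higher and 4 lower among the other pathway genes. With each library left out in turn, 3 to 4 Notch genes were higher and 2 to 4 lower, and 16 to 18 and 19 to 23 of the others. Per length of the longest transcript, 2 genes changed rank in GFP cells (HES1 moved above DLL1) and 2 in RBFOX1 cells (JAG1 moved above NOTCH3). Replicate numbers did not pair the libraries (correlations of deviations between same-numbered libraries of -0.18, 0.034 and -0.066). With the replicate block, 4 Notch genes were higher and 4 lower, and 17 and 23 of the others. The median of all genes moved by less than 0.1 under each scaling (-0.02 to 0.06). Depth limits HES1, with 7 to 58 counts per library, HEY1 and JAG2, and leaves HEY2 and HEYL unmeasured. The causes of the lost calls were not tested.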
